A study of Neolecta irregularis with 2 samples.

Results

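A set of 86 loci of *Neolecta irregularis* differed at least 2-fold in transcript level between 2 specimens of the fungus, called specimen 1 and specimen 2 after their replicate numbers. Of these, 54 were higher in specimen 1 and 32 were higher in specimen 2. They were selected on the measured values of the same libraries: the locus had 1 listed transcript, at least 50 reads in each specimen, a mean level below 1000 TPM and levels at least 2-fold apart. TPM are reads per nucleotide of effective transcript length, scaled to a sum of 1000000 in each library. The data list 6272 transcripts of 5497 loci, 4904 loci had a single transcript, and 1880 loci passed every condition other than the 2-fold difference. These 1880 are called the loci tested, since any of them could have become a member. The members are thus 2.87% of the loci tested for the direction of specimen 1 and 1.70% for that of specimen 2, shares which the rule itself fixes. Without regard to locus or level, 2358 transcripts had 50 reads or more in both libraries, and for them the shares were 3.22% and 1.95%.

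Each specimen came from a botanic garden's collection and is labelled as whole organism, with no treatment, age or stage given. The tissue label was not checked against markers, as few loci could be given a function. RNA was captured by its poly(A) tail and made into 1 library per specimen, with 1556674 assigned reads for specimen 1 and 1511860 for specimen 2. These are a small part of the clean reads that the study reports for each specimen, and the remaining reads were not examined. With 1 library each there is no test between the specimens. Intervals of levels and ratios are exact 95% intervals of the reads, which cover counting error only. Intervals of shares and of median lengths are taken over loci as if these were separate draws. None of them covers differences between libraries of the same specimen. In whole tissue, fewer cells of a type and less RNA per cell cannot be told apart.

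*N. irregularis* is an early-diverging ascomycete that forms yellow, tongue-shaped fruiting bodies above the soil, a rare habit among the Taphrinomycotina, most of which grow as yeasts or simple hyphae. A fungal fruiting body holds spore-forming cells among sterile hyphae, and its messenger RNA pool is known in other ascomycetes to change as it matures. Collections from nature therefore offer RNA of organisms whose stage and surroundings were not controlled. Functions were looked up in the first 1052 rows of an annotation table that was cut short here, so most loci could not be looked up. Of the members, 1 was paired with a function there, and the others are given by their NEOLI transcript identifier and coding length.

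The loci higher in specimen 1 included the widest differences. Their fold difference ranged from 2.01 to 9.06 with a median of 2.49, and 6 of the 54 differed at least 4-fold. The widest was that of NEOLI_002743T0 (coding length 903 nt), at 1041 TPM from 1664 reads in specimen 1 and at 115 TPM from 185 reads in specimen 2. Expressed as specimen 1 over specimen 2, as for all ratios given here, the log2 ratio was 3.18 (95% interval 2.96 to 3.41). In specimen 1 this transcript stood above 99.7% of the loci tested, and in specimen 2 above 52.0% of them.

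NEOLI_002054T0 (1530 nt) was at 212 TPM in specimen 1 and at 25.2 TPM in specimen 2, from 610 and 73 reads. Its log2 ratio was 3.07 (95% interval 2.72 to 3.44). It had the largest change of rank among the members, from above 72.4% of the loci tested to above 8.57%. These were the only members that differed over 8-fold, and one was a strong transcript in its higher specimen while the other was of middle level.

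The next 4 members differed between 4.12-fold and 4.69-fold. NEOLI_002775T0 (1509 nt) was at 441 and 93.9 TPM in specimens 1 and 2. NEOLI_002075T0 (1449 nt) was at 228 and 49.1 TPM. NEOLI_003210T0 (1440 nt) was at 606 and 135 TPM. These 3 transcripts thus lay within a narrow range of coding length and of fold difference, although their levels differed. NEOLI_004989T0 (2082 nt) was at 561 and 136 TPM, with a log2 ratio of 2.04 (95% interval 1.91 to 2.18). Then came NEOLI_002358T0 at 103 and 26.7 TPM, NEOLI_004128T0 at 745 and 201 TPM, NEOLI_004116T0 at 1267 and 367 TPM and NEOLI_002395T0 at 660 and 198 TPM, 3.34-fold to 3.87-fold apart.

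The other 44 members of this direction differed from 2.01-fold to 3.28-fold. By mean level the highest of the 54 were NEOLI_004116T0 at 817 ± 636 TPM, NEOLI_001676T0 at 772 ± 388 TPM and NEOLI_003499T0 at 717 ± 345 TPM (SD, n = 2). Here and below, the SD of a member restates the difference between the 2 specimens that chose it, and does not measure spread between replicates. The longest were NEOLI_003739T0 (4398 nt), at 41.7 and 19.5 TPM, and NEOLI_000587T0 (3942 nt), at 74.0 and 34.5 TPM. Both of the longest were thus below the median level of the loci tested in each specimen, and near the 2-fold limit. Together the 54 transcripts held 2.49% of all reads in specimen 1 but 0.923% in specimen 2.

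**Figure D1:**
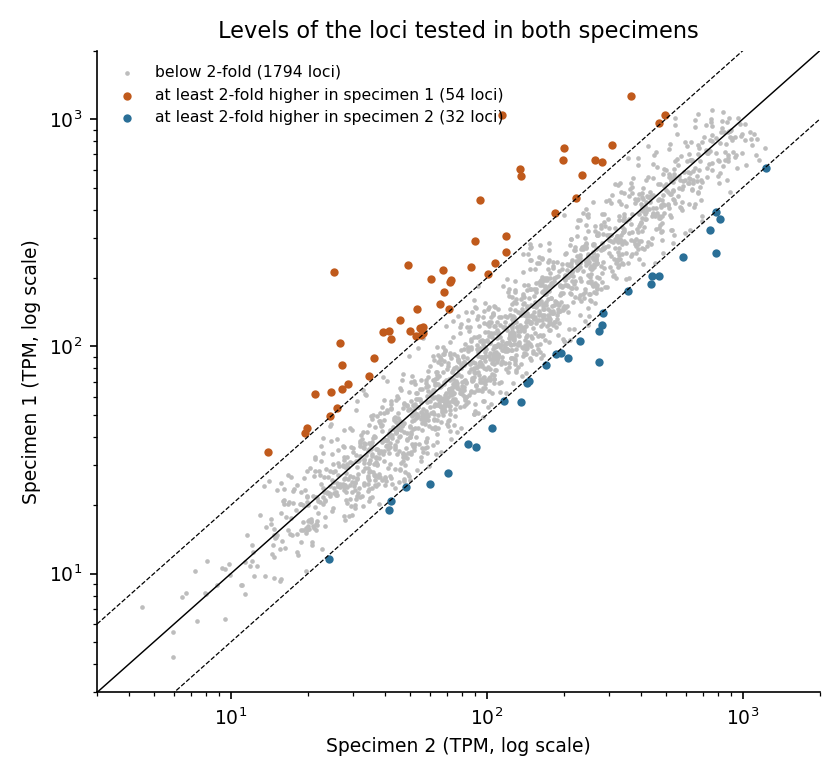
Level of each of the 1880 loci tested in specimen 2 (horizontal axis) and in specimen 1 (vertical axis), both in TPM on a log scale, with 1 point per locus. The solid line marks equal levels and the dashed lines 2-fold differences. The 54 orange points reach 9.06-fold, whereas the 32 blue points stay within 3.21-fold.

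The loci higher in specimen 2 were fewer and lay closer to the limit. Their fold difference ranged from 2.005 to 3.21 with a median of 2.21, and 0 of the 32 reached 4-fold. The same ratio chose these loci, so this describes the chosen set only. NEOLI_004226T0 (1053 nt) led, at 85.6 TPM from 163 reads in specimen 1 and at 275 TPM from 527 reads in specimen 2. Its log2 ratio was -1.68 (95% interval -1.95 to -1.43).

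NEOLI_000829T0.1 (810 nt) followed at 256 and 786 TPM in specimens 1 and 2, from 361 and 1114 reads. Its log2 ratio was -1.62 (95% interval -1.79 to -1.44). These were the only members of this direction that differed at least 3-fold, against 14 in the other direction. Both were of middle to high level in the specimen where they were higher, above 78.8% and 97.1% of the loci tested.

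The next members were of lower level. NEOLI_000891T0 (1536 nt) was at 27.7 and 70.8 TPM in specimens 1 and 2, NEOLI_000353T0 (906 nt) at 36.2 and 91.0 TPM and NEOLI_003276T0 (2088 nt) at 24.9 and 60.1 TPM. Each of these 3 had 100 reads or fewer in specimen 1, so their ratios are less precise, as for NEOLI_000353T0 with a log2 ratio of -1.33 (95% interval -1.80 to -0.88). NEOLI_002590T0, NEOLI_005023T0, NEOLI_003177T0, NEOLI_004541T0 and NEOLI_000067T0 completed the 10 widest, with 2.34-fold to 2.40-fold differences. NEOLI_002590T0 had 50 reads in specimen 1, the least that the rule allows.

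By mean level the highest members of this direction were NEOLI_001175T0 (339 nt) at 919 ± 438 TPM, NEOLI_003627T0 (456 nt) at 589 ± 318 TPM and NEOLI_000127T0 (678 nt) at 588 ± 282 TPM (SD, n = 2). All of these are short coding sequences. The longest were NEOLI_000394T0 (4491 nt), at 140 and 286 TPM, and NEOLI_003165T0 (3726 nt), at 93.4 and 195 TPM. Together the 32 transcripts held 0.442% of all reads in specimen 1 but 1.01% in specimen 2.

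**Figure D2:**
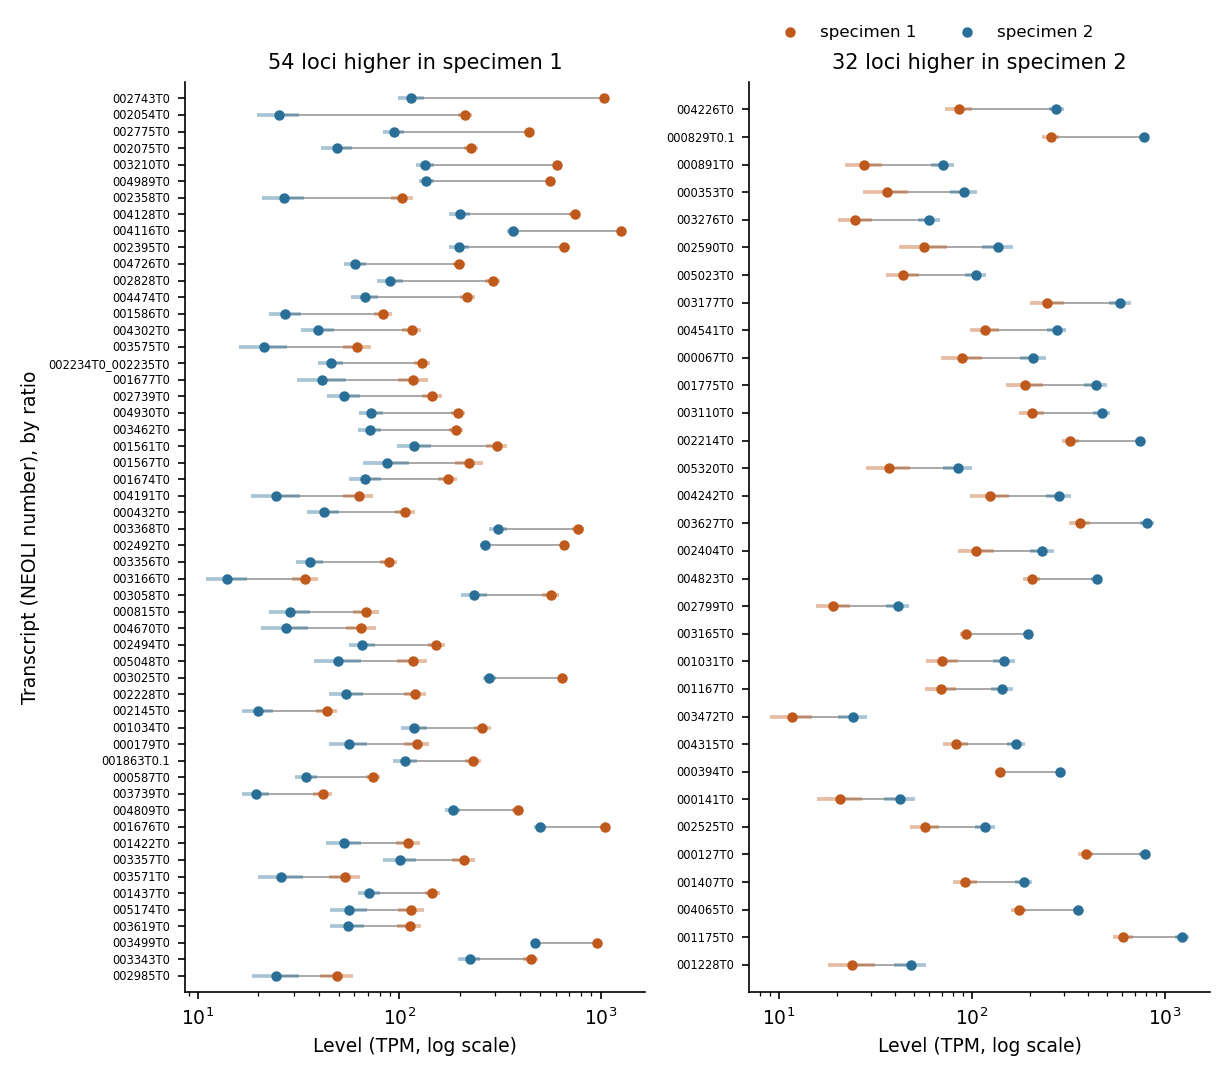
Level of each member in specimen 1 (orange) and specimen 2 (blue), in TPM on a log scale, with members ordered by fold difference from the widest at the top. Points are deposited values and the shaded bars are exact 95% Poisson intervals of the reads. The left panel holds the 54 loci higher in specimen 1 and the right panel the 32 higher in specimen 2, where levels run from 11.6 to 1229 TPM.

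Levels within each direction spread widely and overlapped those of the other loci tested. In specimen 1 the 54 loci had a median of 183 TPM (quartiles 108 and 427) and in specimen 2 of 63.0 TPM (quartiles 37.0 and 119). For the 32 loci the medians were 90.5 TPM in specimen 1 and 202 TPM in specimen 2. The 1794 loci tested that differed less than 2-fold had medians of 99.6 and 108 TPM. By their medians, the 54 loci lay above the typical locus in specimen 1 and below it in specimen 2, and the 32 loci the reverse. The same levels chose the members, so this order is favoured by the selection and is only a description. Mean levels of the members ran from 17.9 to 919 TPM. Taken separately for each direction, the share of loci tested that were members lay between 1.19% and 3.83% in each of 5 ranges of mean level, from below 50 TPM up to the ceiling.

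The member with a known function was a cytochrome P450 of the CYP2 subfamily (NEOLI_004670T0, 1119 nt). Cytochromes P450 are heme-containing monooxygenases, and in plants some of them hydroxylate tyrosine to L-DOPA, the precursor of betalain pigments. Its levels were 64.7 TPM from 132 reads in specimen 1 and 27.3 TPM from 56 reads in specimen 2. Its fold difference of 2.37 lay near the median of its direction. The log2 ratio was 1.25 (95% interval 0.79 to 1.72), and the transcript stood above 35.0% of the loci tested in specimen 1 and above 9.63% in specimen 2. Among the loci tested, all of which had at least 50 reads in each specimen, it was thus in the lower part in both. Whether this P450 acts on tyrosine was not tested.

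The rows of annotation used here named 10 of the loci tested, with transcript numbers 84 to 132, and 1 of them is a member. These counts reflect the part of the table that was used and not how many members have a known function. Of 16 keyword lists of gene functions, 9 matched a tested locus and 1 held a member, the list on betalains and tyrosine. Of its 2 tested loci, 1 was higher in specimen 1 and 0 were higher in specimen 2, against 2.87% and 1.70% of all loci tested. No share can be read from 2 loci. The other locus of that list, a casein kinase (NEOLI_003225T0), matched only by the word tyrosine in its description and was at 812 and 743 TPM. Among the named loci that are not members, NEOLI_001725T0.3, which encodes the heme-synthesis enzyme delta-aminolevulinic acid dehydratase, came nearest to the limit, at 105 and 201 TPM in specimens 1 and 2. Its log2 ratio was -0.94 (95% interval -1.22 to -0.66), the opposite sign of the P450. NEOLI_003228T0, encoding the glycogen primer glycogenin, was at 96.0 and 68.4 TPM. Lists on riboflavin, respiration, ribosomes, stress, lipids and transposable elements matched none of the loci in these rows, so nothing can be said of them.

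A 2-fold difference with at least 50 reads in each specimen excludes a log2 ratio of 0 by construction, so the intervals bear only on the 2-fold limit. In the direction of specimen 1, 28 of 54 intervals lay wholly beyond 2-fold, and in that of specimen 2, 3 of 32 did. Just inside the limit were NEOLI_002985T0 at 2.0135-fold and NEOLI_003343T0 at 2.0145-fold for specimen 1, and NEOLI_001228T0 at 2.005-fold and NEOLI_001175T0 at 2.019-fold for specimen 2. Just outside were NEOLI_003875T0 at 1.995-fold and NEOLI_001539T0 at 1.958-fold, and NEOLI_000696T0 at 1.987-fold and NEOLI_001507T0 at 1.985-fold. No gap in the ratios separated members from the other loci.

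The number of loci in each direction depended on how the libraries were scaled. Each scaling moves nearly every ratio by the same amount, and the median log2 ratio of the loci tested was -0.12 by deposited TPM, -0.17 by total reads and -0.020 with TMM factors, which balance the libraries on the bulk of transcripts. By total reads, 47 loci passed 2-fold toward specimen 1 and 41 toward specimen 2. With TMM factors the counts were 61 and 19, and with DESeq2 size factors also 61 and 19. Loci higher in specimen 1 thus made up 62.8% of the 2-fold loci by TPM, 53.4% by total reads and 76.2% with TMM factors. TPM with full coding lengths gave 54 and 32, and TPM rescaled without the transcripts of 1000 TPM or more gave 57 and 23. Those transcripts held 60.0% of all TPM in specimen 1 and 58.6% in specimen 2.

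Since the scalings moved the median log2 ratio by at most 0.10 and members were chosen at an absolute value of 1 or more, no scaling could turn a member's direction, and all 54 and all 32 kept it. At least 2-fold under all 6 scalings were 47 of the 54 and 19 of the 32. The 7 members that were lost for specimen 1 were lost by total reads, and the 13 lost for specimen 2 were lost with TMM or DESeq2 factors. Ranks within a library do not move when a whole library is rescaled. Among the loci tested, the 54 members stood at a median rank above 68.4% in specimen 1 and above 31.5% in specimen 2, and each of the 54 had the higher rank in specimen 1. For the 32 members the medians were 45.6% and 70.4%, and each had the higher rank in specimen 2. Since the same levels chose the members, these ranks describe the size of their shift only.

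**Figure D3:**
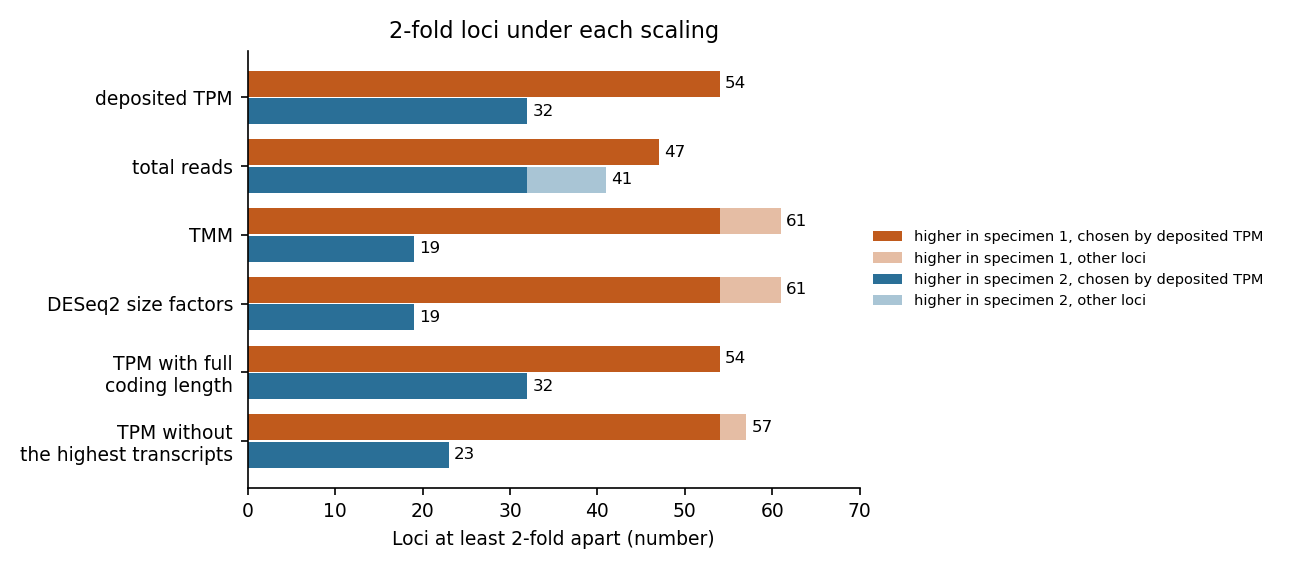
Number of loci at least 2-fold apart (horizontal axis) under 6 scalings of the 2 libraries, for loci higher in specimen 1 (orange) and in specimen 2 (blue). Full colour marks loci that deposited TPM also chose and pale colour the others. The orange bars run from 47 to 61 and the blue bars from 19 to 41.

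Coding length was not used by the rule, and the 32 loci higher in specimen 2 tended to be short. Their median coding length was 920 nt (95% interval of the median 678 to 1272 nt), against 1292 nt (1071 to 1449 nt) for the 54 loci of the other direction and 1360 nt for the other loci tested. The interval of the 32 lies below the median of the other loci tested and overlaps that of the 54. As loci are not replicates of a specimen, this is a description and not a test. Of the 32 loci, 9 were under 600 nt, or 28.1%, while 9.73% of the loci tested and 3 of the 54 were that short. From 1500 to under 2500 nt the order was the other way, with 2 of the 32 and 12 of the 54. At 2500 nt and over were 4 of the 32 (12.5%) and 5 of the 54 (9.26%), so the shares did not change steadily with length.

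Read per length class, 4.92% of the 183 loci tested under 600 nt were higher in specimen 2 (95% Clopper-Pearson interval 2.27% to 9.13%). From 1500 to under 2500 nt this was 0.403% of 496 loci (0.0489% to 1.45%), and at 2500 nt and over 1.31% of 305 loci (0.358% to 3.32%). The share higher in specimen 1 was 1.64% in the shortest class, 4.20% from 1000 to under 1500 nt and 1.64% at 2500 nt and over. Over all loci of a class, the median log2 ratio was -0.19 under 600 nt and between -0.14 and -0.088 in the longer classes. Short loci as a whole were thus also slightly lower in specimen 1, and the part of this shift in the members' lengths was not tested.

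The short members themselves were not weak transcripts. The 9 short loci higher in specimen 2 were 315 to 552 nt long, with mean levels of 96.5 to 919 TPM and a median of 314 TPM, near the 282 TPM of the 171 other short loci tested. NEOLI_003177T0 (315 nt) was the shortest member, at 247 TPM from 99 reads in specimen 1 and at 587 TPM from 237 reads in specimen 2. The 3 short loci of the other direction were NEOLI_001561T0, NEOLI_001567T0 and NEOLI_003058T0, the last at 566 and 236 TPM. A short transcript needs a high level to reach 50 reads, so short loci of low level are not among the loci tested.

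**Figure D4:**
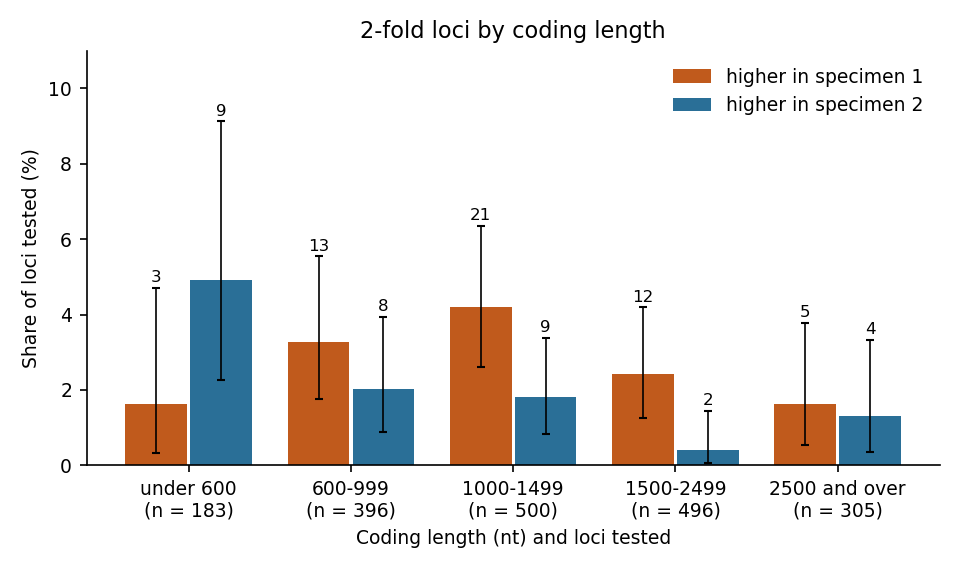
Share of the loci tested (vertical axis, percent) that passed 2-fold toward specimen 1 (orange) or specimen 2 (blue), by coding length in nucleotides. Numbers above the bars are counts of members and error bars are 95% Clopper-Pearson intervals. The blue share was highest under 600 nt, at 4.92%, and the orange share from 1000 to under 1500 nt, at 4.20%.

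Locus numbers mostly run along the gene models, since 631 of 728 pairs of loci tested with adjacent locus numbers also had adjacent transcript numbers. Some members higher in specimen 1 lay near one another in this order. Of the 54, 11 (20.4%, 95% Clopper-Pearson interval 10.6% to 33.5%) had another member of the same direction within 5 locus numbers, against 156 of the 1794 other loci tested (8.70%). The interval treats members as separate, although neighbours count each other. Within 1 locus number the shares were 7.41% (2.06% to 17.9%) and 1.78%, and within 10 they were 27.8% (16.5% to 41.6%) and 16.6%, where the interval reaches just below the share of the other loci. In the order of transcript numbers, within 5, the shares were 18.5% and 6.69%. For the 32 members of the other direction the count within 5 was 0, with an upper Clopper-Pearson bound of 10.9% (9.38% if 0 is read as at most 3 loci), against 6.35% of the other loci tested. Loci are not replicates of a specimen, so no difference is read from this count.

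The 11 loci formed 5 groups. The first was NEOLI_001674T0 at 174 and 68.0 TPM in specimens 1 and 2, NEOLI_001676T0 at 1047 and 498 TPM and NEOLI_001677T0 at 117 and 41.6 TPM. Their log2 ratios were 1.36, 1.07 and 1.50, and their levels differed widely. The quartiles over all 54 members were 1.12 and 1.59, and all were chosen at 1 or more, so these ratios mark no likeness particular to the group. The locus between them, 1675, had 14 and 20 reads in its best covered transcript. The second group was the adjacent pair NEOLI_003356T0, at 88.6 and 36.2 TPM, and NEOLI_003357T0, at 209 and 101 TPM. The next locus, NEOLI_003358T0, was no member but was also higher in specimen 1, with a log2 ratio of 0.50 (95% interval 0.41 to 0.60).

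NEOLI_002492T0 (3306 nt) was at 658 and 265 TPM and NEOLI_002494T0 at 153 and 65.4 TPM, on either side of a locus with 0 reads in both specimens. The fourth group paired the widest member, NEOLI_002743T0, with NEOLI_002739T0 at 146 and 53.3 TPM. Between them NEOLI_002740T0 stood just below the limit with a log2 ratio of 0.92 (95% interval 0.81 to 1.02), but NEOLI_002742T0, next to the widest member, was near equal, at 57.8 and 68.2 TPM with a log2 ratio of -0.24 (interval from -0.66 to 0.18). The last group, NEOLI_003571T0 and NEOLI_003575T0, is close only in locus number, because their transcript numbers are 3733 and 4651. NEOLI_003574T0, adjacent to NEOLI_003575T0 in both orders, was no member but was also higher in specimen 1, at 271 and 147 TPM. Its log2 ratio was 0.88 (95% interval 0.51 to 1.26).

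**Figure D5:**
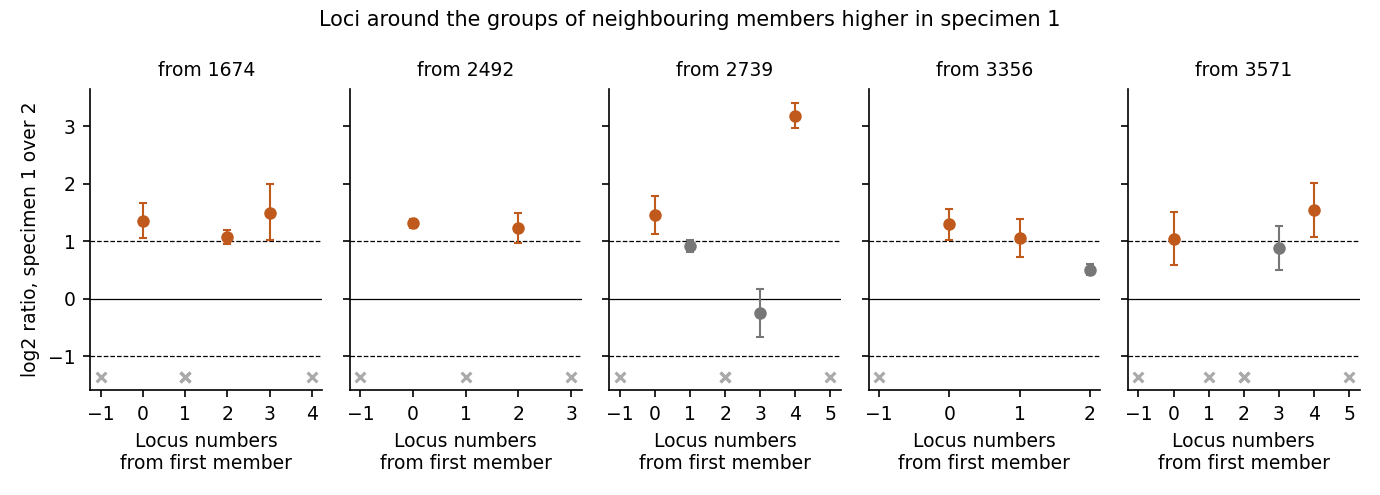
Log2 ratio of specimen 1 over 2 (vertical axis) for the loci of each of the 5 groups and 1 locus on either side, by locus number counted from the first member (horizontal axis). Orange points are members, grey points other loci tested, bars exact 95% intervals and crosses mark loci that were not tested, at no value. Dashed lines mark 2-fold. In the group from 2739, the ratio is 3.18 at the last member and -0.24 at the locus before it.

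Loci next to a member that were not members themselves have ratios which the rule did not use to choose them, apart from their being below 2-fold. For the 54 loci, 32 such neighbours lay 1 locus number away, and 14 of them (43.8%, 95% interval 26.4% to 62.3%) were higher in specimen 1, against 37.5% of the other non-members. Their median log2 ratio was -0.11, against -0.13. For the 32 loci, 19 of 23 such neighbours (82.6%, 61.2% to 95.0%) were higher in specimen 2, against 62.2%, and their median log2 ratio was -0.28, against -0.13. Within 5 locus numbers the share was 67.5% of 114 neighbours, against 62.1%. Counted from the median log2 ratio of the loci tested and not from 0, the share next to the 32 was 69.6% (47.1% to 86.8%), against 50.4%. Within 5 it was then 52.6%, against 50.5%. Thus the neighbours of the 54 loci were close to all other loci. Those of the 32 leaned to specimen 2 at the shortest distance. There the interval's lower bound lay just under the background share when counted from 0, and further under it when counted from the median.

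Members of opposite direction also lay side by side. NEOLI_003165T0 was 2.09-fold higher in specimen 2, and the adjacent NEOLI_003166T0 was at 34.2 and 14.0 TPM, 2.45-fold higher in specimen 1. NEOLI_001031T0, at 70.4 and 147 TPM, lay 3 locus numbers from NEOLI_001034T0, at 259 and 119 TPM. These were the only opposite pairs within 5 locus numbers. The library kit kept strand, but no source used here says whether counting did, so reads of overlapping or antisense genes cannot be told apart.

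Loci that the rule leaves out also differed. Of the 145 single-transcript loci with at least 50 reads in each specimen and a mean of 1000 TPM or more, 10 passed 2-fold toward specimen 1 and 5 toward specimen 2. Among the 1880 loci tested these counts were 54 (2.87%) and 32 (1.70%). In both directions, 2-fold loci were thus a larger share of the 145 loci than of the loci tested. A further 170 loci with a mean below 1000 TPM reached 50 reads in 1 specimen only, and of them 18 and 17 were at least 2-fold apart. Passing the minimum in only 1 specimen itself favours unequal loci, so these 2 counts cannot be set against the shares of the loci tested. Among the members themselves, 85 of 86 had whole read numbers in both libraries, to within 0.001 reads. Of the names, 2 carry an isoform suffix (NEOLI_001863T0.1 and NEOLI_000829T0.1) and 1 joins 2 loci (NEOLI_002234T0_NEOLI_002235T0), so a single listed transcript need not mean a single isoform. Near-identical gene copies were not looked for.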

How the data were processed

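Total RNA of 2 *N. irregularis* specimens was sequenced as 1 stranded library each, labelled as samples of 1 kind (replicates 1 and 2, here specimens 1 and 2). Per transcript, the deposited values are estimated counts with no normalization, of which 97.1% and 97.0% are whole to within 0.001. The deposited TPM use an effective length a median of 120 and 119 nt below the coding length. The submitters' processing notes list FastQC 0.11.9 and fastp 0.20.0. The study's methods add hisat2, featureCounts, NOISeq and RPKM, but which tool made these columns is not stated there. Coding lengths are multiples of 3 in 99.54% of transcripts, so untranslated regions are absent.

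Members were found by the rule stated in the report. Ratios carry Clopper-Pearson intervals of the reads, levels Poisson intervals and medians order-statistic intervals, at 95%. Alternatives were 5 other scalings (edgeR 4.0.16 TMM and DESeq2 1.42.0 factors on rounded counts in R 4.3.3), other minimums of reads, other folds and windows. Python 3.11.15, numpy 2.4.6, scipy 1.17.1 and pandas 2.3.3 were used, and steps were tested on simulated data. Functions come from the first 1052 rows of the study's annotation table, which was cut short here, matched by transcript number, so counts of functions cover those rows only. Named transcripts are the 10 widest ratios, 3 highest and 2 longest members of each direction, annotated members, adjacent members and those at the limit, with others named after their values were seen. The members, lists and this rule were chosen with earlier results of these data known.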

Additional observations from a re-analysis of the deposited data

How the results depend on the processing

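With 1 library per specimen, depth limits the members of few reads most, and no alternative replaces a second library. The number of loci higher in specimen 1 was 54 of 1880 loci tested by deposited TPM. It was 87 of 2444 with at least 10 reads in each specimen, and 180 of 4759 with no minimum and a pseudocount of 1 TPM. Of the same 1880 loci, it was 14 at 3-fold and 28 with the interval wholly beyond 2-fold. The number higher in specimen 2 was 32, and it was 69, 133, 2 and 3 under the same settings, out of the same numbers of loci. It was 19 of 1483 with at least 100 reads in each, and 19 of 1880 with TMM factors or DESeq2 size factors. A lower minimum tests more loci and a wider fold or a bound admits fewer, so each count is to be read against its own number of loci. Why the libraries' scaling factors differ was not tested. Without the ceiling, with isoforms summed, or under the other scalings, both counts stayed within 1.5 times. The share of the 54 loci with a neighbouring member was 7.41% within 1 locus number (1.78% of the other loci tested), and 20.4% within 5 (8.70%). With either specimen alone, median levels ranged from 63.0 to 183 TPM for the 54 loci and from 90.5 to 202 TPM for the 32, by the way the members were chosen. Median lengths and the shares of neighbours of the same sign did not change beyond their intervals under the alternatives run. The directions of the 36 named members, fixed by their selection, kept their sign. For median levels the spread was the SD of the 2 specimens' own medians. Leaving out 1 specimen cannot exceed that SD, so this comparison was fixed in advance and does not show stable levels. With full coding lengths or at least 100 reads in each, median levels stayed within that SD. A ratio cannot be had without both specimens, so leaving one out was not run for the counts. No paired analysis was possible because the labels define a single condition, so nothing is tested between groups.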
